A study of Rattus norvegicus with 50 samples.

Results

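The genes described here were high in the medial prefrontal cortex of the rat at 8 days after birth, lower at day 14, and close to that lower level at days 21 and 70. They numbered 104 of 29516 rows of the tables, each row an Ensembl rat gene identifier, and 13213 of all rows reached the required mean of 1 FPKM. FPKM counts the sequenced fragments of a gene per kilobase of its transcript and relative to all that were mapped, so it is a level per length. The members were selected on measured values: after each library was scaled, log2(FPKM + 0.5) was averaged over the 10 libraries of an age, wild-type and knockout together. A row was kept where its day 14 mean lay at least 0.8 log2 units below its day 8 mean, and where days 14 and 70, and days 21 and 70, differed by less than 0.4. Because these ages chose the members, the fall and the level stretch are given below as a description with no test. Tests were made of what the rule did not use directly: the differences between genotypes, the level at day 35, and the fall in one genotype of rows chosen in the other. The first of these shares its day 8, 14, 21 and 70 libraries with the rule, and the second is set against ages that the rule holds together.

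The animals were Wistar rats, wild-type or knockout for the serotonin transporter (SERT), the membrane protein that returns released serotonin to the neuron. Tissue was prefrontal cortex taken 8, 14, 21, 35 or 70 days after birth, and no treatment is labelled. Each of the 10 groups of genotype and age held 5 libraries of RNA depleted of ribosomal RNA, 50 in all. The labels say neither how many rats a group came from nor their sex, so the spread between libraries may be partly technical. The label gives no cell type, stage or allele for the knockout.

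In the rodent cortex the weeks after birth are a time of change without much new neuron formation: axons and dendrites extend, glia multiply and mature, blood vessels branch, synapses form and myelination begins. Genes of cell division, of axon and neurite growth, and of the matrix that surrounds growing vessels are known to be active early and to decline as synapses and myelin take over. Serotonin fibres spread through the cortex around birth and in the weeks after, and loss of the transporter raises the serotonin outside the cells. The tables give identifiers without gene names, and the reference table used here paired 0 of them with a symbol. Which of those processes the members belong to, the level of the transporter gene itself, and the markers of cortical and other cells were therefore not analysed here. Members are called by their rank of fall, from 1 for the largest, and 4 of them by identifier. In tissue RNA, fewer cells of a type and less RNA per cell cannot be told apart.

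Depth was recovered as a ratio between libraries, and ran from 0.397 to 1.42 times that of the median library. Total FPKM ran from 330400 to 2142000, the share held by the 50 most abundant rows from 48.8% to 82.3%, and 17890 to 20219 rows per library were above 0. Whole reads could be recovered for 83 members, because their values were whole multiples of the FPKM of a single read. In 40 members, called short here, 1 read was worth 0.1 FPKM or more in the median library (0.110 to 1.76 FPKM). In 43 members, called long, a read was worth less (0.00688 to 0.0967 FPKM), and 21 members were not resolved. A row in which a read is worth much FPKM belongs to a short counted length. The division was chosen after the values were seen and uses no age or genotype.

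The size of the fall was moderate in most members. The median difference from day 8 to day 14 was -0.97 log2 units, from -2.38 to -0.80, and 45 members lay at least 1 log2 unit down. At day 14 the median member kept 46.5% of its mean FPKM of day 8. From day 14 to day 70 the median member moved by a further -0.15, within the window the rule allows. The 2 members nearest the threshold were at -0.8033 and -0.8023, and the nearest rows outside it at -0.7997 and -0.7987. Within 0.05 log2 units of the threshold lay 23 members. Of 392 rows with a fall of at least 0.8, 193 were at least 0.4 lower again at day 70 and 51 at least 0.4 higher. A further 44 matched at days 14 and 70 but not at day 21. Of the 4 rows that the rule sets aside, 0 met all of its numeric conditions.

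**Figure D1:**
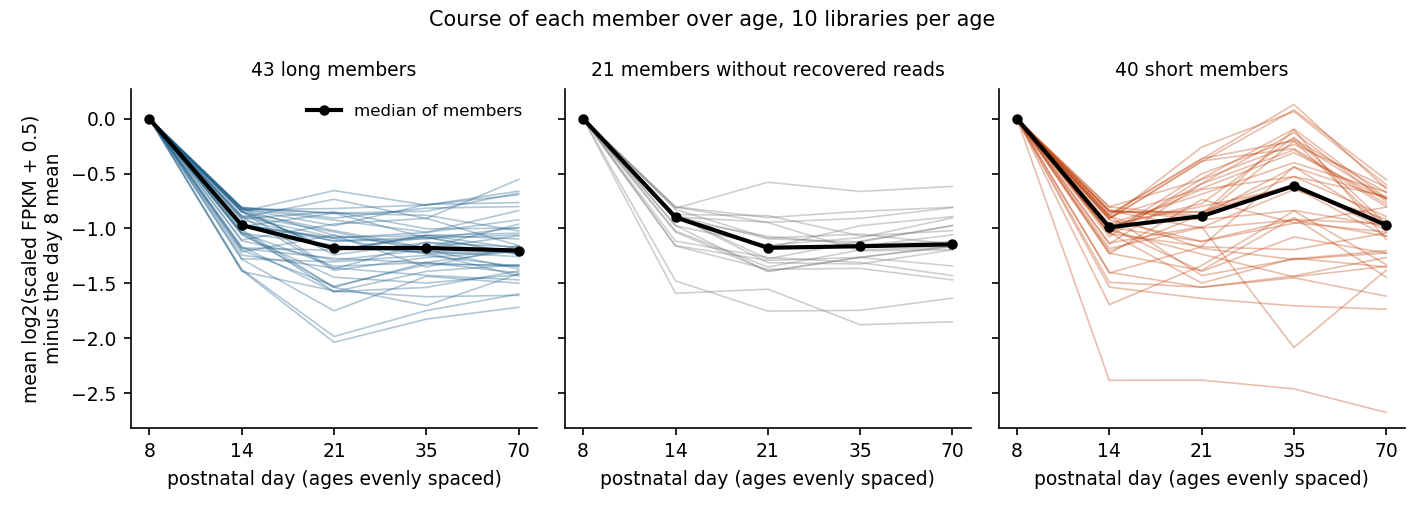
Mean log2(scaled FPKM + 0.5) of each member minus its day 8 mean (vertical axis, log2 units) at the 5 ages, evenly spaced, with the median of the members in black. The medians of the 43 long and 21 unresolved members are nearly flat from day 21, though single members move, while the median of the 40 short members comes up at day 35 to 0.61 below day 8.

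Members differed in how well their libraries separated the ages. In 54 of 104 members every day 8 library was above every day 14 library, which held in 4.88% of tested rows. In 49 members every day 8 library was above all 40 later libraries, against 4.09% of tested rows. Both counts follow in part from the rule and support nothing further. Of the 49, 30 were long, 18 were unresolved and 1 was short. The median standard deviation within groups was 0.212 log2 units in long members, 0.182 in unresolved ones and 1.13 in short ones.

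A clear example was the member with the third largest fall. In knockout libraries of day 8 it was at 11.3, 12.9, 13.0, 12.9 and 18.4 FPKM, and in wild-type libraries at 9.65, 10.6, 8.42, 12.7 and 11.5. At day 14 the knockout libraries were at 3.44, 3.43, 3.47, 3.90 and 3.78 FPKM and the wild-type ones at 3.29, 3.56, 3.77, 3.65 and 3.93. Every day 8 library was above every day 14 library by a wide margin, and the genotypes overlapped at both ages. Knockout libraries of day 8 were higher by 0.35 ± 0.105 log2 units (SE; unadjusted p = 0.00153, adjusted p = 0.183, both by limma). That difference was not called. The member ran on at 2.99 to 4.76 FPKM on day 21, with 2.29 to 3.31 on day 35 and 2.25 to 3.61 on day 70.

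The member ranked 6 showed the same shape at a lower level. Its 10 libraries lay between 4.27 and 6.55 FPKM at day 8 and between 1.37 and 1.67 at day 14, with a mean of 5.23 ± 0.622 (SD, n = 10) against 1.55 ± 0.0975 (SD, n = 10). No library of days 21 to 70 was above 1.90 FPKM.

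Among long members the highest level belonged to the one ranked 12. It was at 129, 164, 125, 115 and 78.2 FPKM in knockout libraries of day 8 and at 139, 132, 104, 120 and 123 in wild-type ones. At day 14 it was at 50.5, 63.2, 50.8, 42.6 and 43.9 FPKM in knockout and at 46.7, 60.8, 53.1, 53.3 and 36.8 in wild-type libraries. No library of day 14 reached the lowest of day 8. These values rest on 390 to 7919 reads per library, so counting error is small beside the differences. Its lowest age was day 21, at 27.2 to 43.3 FPKM, before 29.8 to 57.3 at day 35 and 33.5 to 54.5 at day 70.

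Among unresolved members the highest was ranked 77. It ran from 125 to 182 FPKM at day 8 and from 72.4 to 96.1 at day 14, and reached no more than 95.5 in the libraries of days 21 to 70. Its difference of -0.88 log2 units was near the smallest the rule admits, yet the ages did not overlap.

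ENSRNOG00000034718, a short member, had the largest fall, -2.38 log2 units, and was listed at 0 in 21 libraries. At day 8 it was at 13.0, 18.7, 13.9, 0 and 0 FPKM in knockout libraries and at 13.6, 13.6, 9.60, 19.6 and 17.8 in wild-type libraries. At day 14 the knockout values were 13.9, 0, 14.6, 0.822 and 0 FPKM, and the wild-type values 0, 0.591, 0.877, 0 and 1.20. The genotypes' own differences were -4.03 log2 units in wild-type and -0.74 in knockout libraries. In wild-type libraries the ages were apart; in knockout libraries they overlapped fully. The highest library of all held 28 reads of it, and the median library 1.

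ENSRNOG00000040911, also short, was second at -1.69 log2 units. It was at 56.0, 33.9, 62.8, 40.8 and 9.21 FPKM in knockout and at 23.3, 131, 28.3, 34.1 and 51.8 in wild-type libraries of day 8. At day 14 it was at 48.1, 12.4, 9.98, 5.63 and 28.9 FPKM in knockout and at 29.7, 0, 32.4, 28.1 and 3.30 in wild-type libraries. The ages overlapped in both genotypes. The libraries held 0 to 105 reads of it, and its range at day 21, 0 to 131 FPKM, was as wide as that of day 8.

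Low read numbers were a feature of part of the short members, whose medians over the libraries ran from 0 to 561.5 reads. Of the 104 members, 18 were listed at 0 in some library, all of them short. Of the 83 members with recovered reads, 16 had a median of under 10, all of them short too. High FPKM did not mean a small spread between libraries: the 8 highest day 8 means, 156 to 753 FPKM, were all short. The highest, ranked 31, ran from 102 to 2140 FPKM at day 8. Its range was 2.24 to 904 FPKM at day 14, and 35.3 to 3670 at day 21. These values rest on 78 to 1244 reads per library at day 8, 2 to 565 at day 14 and 23 to 1252 at day 21. The short member whose day 8 libraries were all above the later ones was ranked 8, with 1.85 to 5.04 FPKM at day 8 and no later library above 1.84. It had few reads, 9 to 33 per library at day 8 and 0 to 9 at day 70. Short rows made up 38.5% of members and 10.7% of the 14779 tested rows. They made up 46.5% of the other rows with a fall of at least 0.8.

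The levels of short members varied together from library to library. Each member was set against its own day 8 mean, and the median over a class was taken in each library. For long members the 10 libraries of day 8 lay between -0.21 and 0.09, those of day 14 between -1.12 and -0.87, and no later library was above -1.08. For short members knockout library 17-1 of day 21 was at 1.48, above every library of day 8, where the median of its group was -1.18. Wild-type library 25-3 of day 8 was at 1.30, and wild-type library 20-2 of day 14 at -2.14. Deviations from group means had a median correlation of 0.253 over 780 pairs of short members, 0.047 over 903 pairs of long members and 0.004 over 1720 mixed pairs. Each pair was compared over the same 50 libraries, so pairs share their libraries and this is a description.

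The rows outside the member set that were short moved alike. In knockout library 17-1 their median stood at 0.488 against -0.275 for its group, in wild-type library 25-3 at 0.383 against 0.053, and in wild-type library 20-2 at -0.408 against -0.012. The share of FPKM held by the 50 most abundant rows moved with them: 79.3% in library 17-1 against a group median of 62.7%, 76.1% in library 25-3 against 65.9%, and 48.8% in library 20-2 against 66.4%. Their part in the fall of the short members was not tested.

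**Figure D2:**
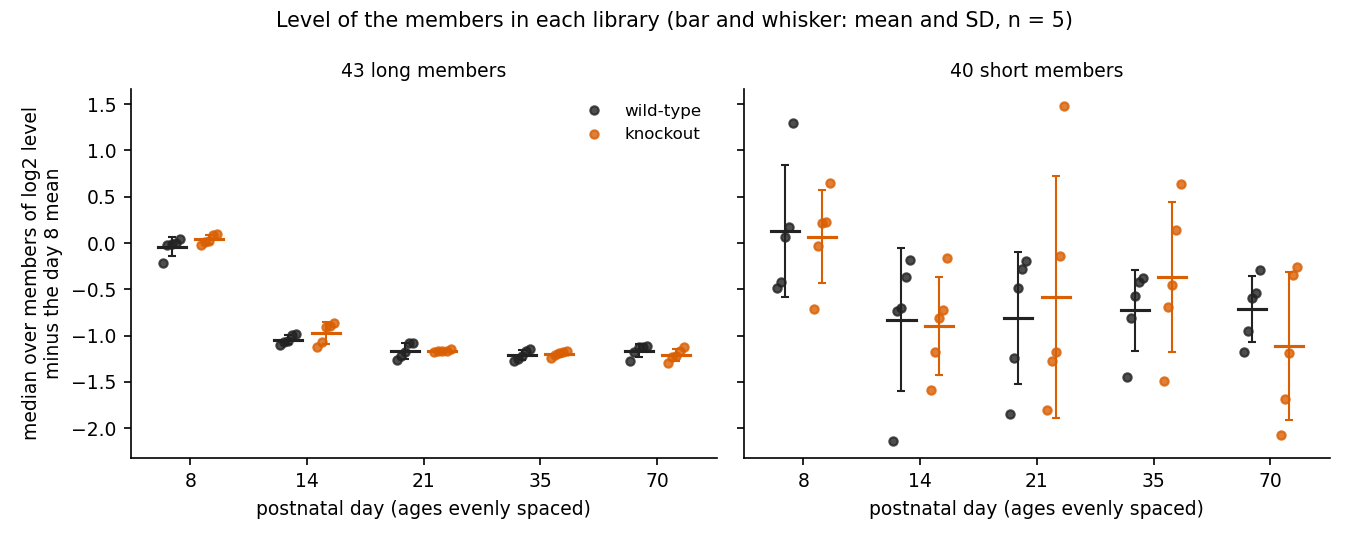
Median over the long members (left) and the short members (right) of the log2 level minus the day 8 mean (vertical axis, log2 units), 1 point per library, by age and genotype, with mean and SD of 5 libraries. Long members sit between -1.30 and -0.87 in every library after day 8, while short members span -2.14 to 1.48.

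Whether rows chosen by the rule in some libraries fell in others was examined by applying the rule to one genotype and testing the day 8 to 14 difference in the other. Each table was scaled on its own and fitted with limma, with a call at a Benjamini-Hochberg adjusted p under 0.05 over all rows tested. Wild-type libraries alone chose 137 rows, of which 56 are among the 104 members and the rest are other rows. In knockout libraries 75 of them fell, 54.7% against 16.3% of all tested rows, and 0 rose. Lower means at day 14 were seen in 125, where the median difference of all tested rows was -8.05e-05 log2 units. In 59 of the 137 the 5 libraries of day 8 were all above the 5 of day 14, which held in 9.64% of tested rows. The median difference was -0.96 log2 units in the libraries that chose the rows and -0.69 in the others.

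Knockout libraries alone chose 115 rows, 58 of them members. Of the 115, 86 fell in wild-type libraries, 74.8% against 15.8% of tested rows, and 0 rose. In 66 of them the ages did not overlap, against 10.4% of tested rows. The median went from -0.93 to -0.73 log2 units, where that of all tested rows in wild-type libraries was -0.02. All conditions of the rule, the level stretch included, were met in both genotypes by 39 rows. These are the rows that the 2 choices share, so the count is the same in either direction.

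Most long and unresolved rows fell again in the other genotype. Of rows chosen in wild-type libraries, 46 of 66 long and 24 of 27 unresolved rows fell in knockout libraries, where 17.6% and 17.4% of all tested rows of those classes did. Of short rows 5 of 44 fell, 11.4% against 6.33% of tested short rows. In the other direction 49 of 56 long and 30 of 34 unresolved rows fell, against 17.8% and 15.6%, and 7 of 25 short rows, against 7.58%. The classes differ in spread, so these shares also differ in what the test could detect.

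Among the 104 members, 60 had a difference of at least 0.8 log2 units in each genotype taken alone, 27 only in wild-type and 17 only in knockout libraries. Short members made up 17 of the 27 and long members 8. By genotype the medians were -0.99 in wild-type and -0.97 in knockout libraries, and 102 members were lower at day 14 in both. The 39 rows that met the whole rule in each genotype alone were all members. The rule was met in neither genotype alone by 29 members, of which 26 were short. When each library was left out in turn, 40 members met the rule every time: 21 of 43 long, 15 of 21 unresolved and 4 of 40 short ones.

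**Figure D3:**
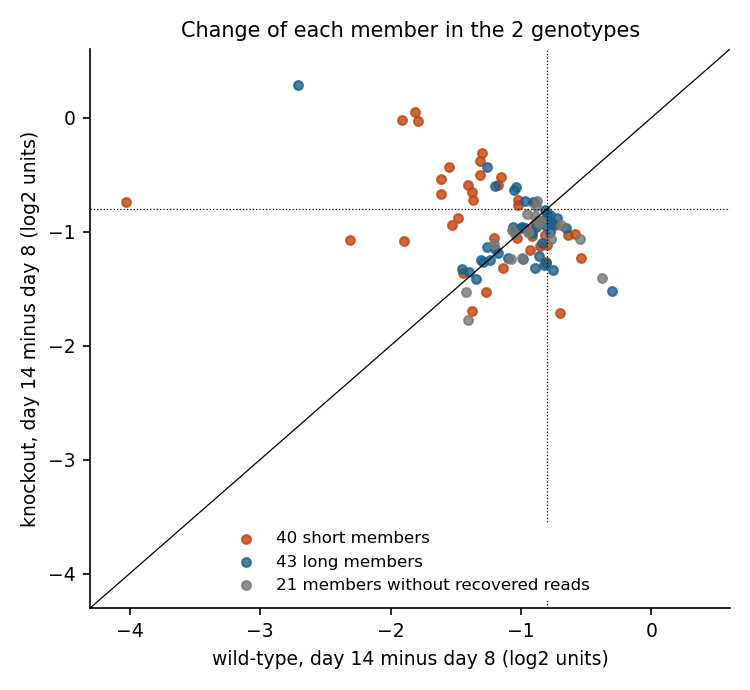
Day 14 minus day 8 in wild-type (horizontal axis) and knockout (vertical axis) libraries, log2 units, 1 point per member, with the line of equality and the threshold of -0.8 dotted. Most long and unresolved members lie near the line, and the 2 farthest above it are ENSRNOG00000034718 at -4.03 and -0.74 and the long member ranked 17 at -2.71 and 0.29.

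The day 35 libraries had no part in the rule. Set against the mean of days 14, 21 and 70, most long and unresolved members were slightly lower there. Only 12 of 43 long and 2 of 21 unresolved members were above 0. Relative to day 8, the median long member was at -0.97, -1.179, -1.178 and -1.201 log2 units on days 14, 21, 35 and 70. The median unresolved member was at -0.899, -1.176, -1.162 and -1.145. By these medians day 35 was lower than day 14 and close to days 21 and 70. The difference between day 35 and the mean of days 14, 21 and 70 had a median of -0.06 log2 units in long members and -0.07 in unresolved ones, against 0.00 in all long and all unresolved tested rows. By limma 7 members were lower at day 35, 6.73% of members, and 10.4% of tested rows were lower. Of these 7, 3 were long, 3 unresolved and 1 short, where 11.1% of long, 11.7% of unresolved and 2.08% of short tested rows were lower. No member was higher, where 10.1% of tested rows were. Before adjustment 14 members had a p under 0.05, 13.5% against 31.3% of tested rows. A share of calls at or below that of all rows is no result about the members. The rule holds the other 3 ages together, so this comparison is not wholly free of it.

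The lowest adjusted p among the 7, 0.00348 by limma, belonged to the long member ranked 33, with a difference of -0.37 ± 0.095 (SE). Its libraries held 0.841 to 1.78 FPKM at day 14 and 0.590 to 1.08 at day 21. They held 0.395 to 1.04 FPKM at day 35 and 0.543 to 1.17 at day 70. The ages overlapped, with day 35 lowest by median. The clear member ranked 3 was lower by 0.21 ± 0.060 (SE, log2 units; limma adjusted p = 0.00845). Its medians were 3.61 and 3.76 FPKM at days 14 and 21, and 2.91 and 3.10 at days 35 and 70. The largest of the 7, -0.92 ± 0.32 (SE; limma adjusted p = 0.0358), was the short member ranked 27. At day 35 it was at 1.08, 2.01, 6.13, 4.68 and 3.78 FPKM in wild-type and at 7.52, 11.7, 14.8, 45.6 and 12.0 in knockout libraries, from 1 to 33 reads. The low values were those of the wild-type libraries, and the genotypes did not overlap. Their difference, 2.11 ± 0.557 log2 units (SE), had an unadjusted p of 0.000497 and a limma adjusted p of 0.999.

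Short members went the other way on balance without passing the test. Their median difference at day 35 was 0.34 log2 units, 34 of 40 were above 0, and 23 were above 0.3. No long or unresolved member was above 0.3. Among all tested short rows the median was 0.11 and 32.1% were above 0.3. The day 35 libraries also held more of their FPKM in the 50 most abundant rows in knockout rats, where the group median was 76.8% against 62.7% to 69.0% at the other ages. In wild-type rats it was 73.5%, within the 65.9% to 74.8% of the other ages. Its part in the day 35 level was not tested.

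**Figure D4:**
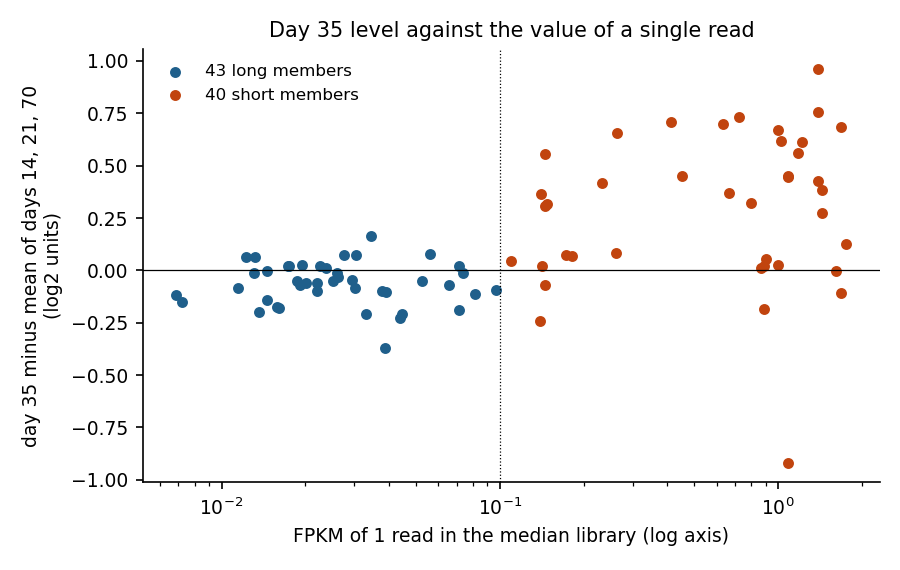
Day 35 minus the mean of days 14, 21 and 70 (vertical axis, log2 units) against the FPKM of 1 read in the median library (horizontal log axis) for the 83 members with recovered reads, with the division at 0.1 dotted. Long members lie between -0.37 and 0.17, and 23 short members lie above 0.3.

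The knockout and wild-type libraries were compared at each age to ask whether loss of the transporter moved these genes. At day 8, 2 of 104 members were higher in knockout libraries by limma with Benjamini-Hochberg adjustment, where 0.101% of tested rows were higher, and 0 were lower, against 0.142%. The member ENSRNOG00000014644 is long and ranked 62. At day 8 it was at 5.04, 18.5, 12.0, 15.4 and 3.53 FPKM in knockout and at 4.67, 4.43, 3.68, 4.24 and 4.02 in wild-type libraries. At day 14 the same member was at 3.23, 2.88, 2.64, 2.78 and 2.82 FPKM in knockout and at 3.87, 4.17, 2.51, 3.20 and 3.04 in wild-type libraries. Knockout libraries 29-4, 29-5 and 30-1 of day 8 were high, and the other 2 of that group were near the wild-type level. The difference at day 8 was 1.04 ± 0.223 log2 units (SE; limma adjusted p = 0.0265).

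ENSRNOG00000014871, unresolved and ranked 67, was high in the same 3 libraries. At day 8 it was at 1.80, 10.7, 6.68, 6.78 and 2.20 FPKM in knockout and at 0.998, 2.61, 1.72, 1.63 and 1.88 in wild-type libraries. At day 14 all 10 libraries lay between 0.861 and 1.89 FPKM. The difference at day 8 was 1.22 ± 0.256 log2 units (SE; limma adjusted p = 0.0233).

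Both calls were sensitive to single libraries. Without library 29-4 the differences were 0.80 (adjusted p = 0.199) for ENSRNOG00000014644 and 0.94 (adjusted p = 0.166) for ENSRNOG00000014871 by limma. Each call was also lost without 29-5, without 30-1, and without wild-type library 25-2 or 26-1, and that of ENSRNOG00000014644 without wild-type library 27-4. The differences changed less than the calls: without these they were 0.86 to 1.07 for ENSRNOG00000014644 and 1.08 to 1.23 for ENSRNOG00000014871. The 5 libraries of a group carry 3 first title numbers, whose meaning the labels do not give, and libraries 29-4 and 29-5 share theirs. No first number is shared between groups, so between groups what it stands for cannot be told apart from age or genotype. The main tests took the 5 libraries of a group as independent. Averaged by first number, the differences were 0.94 (limma adjusted p = 0.387) for ENSRNOG00000014644 and 1.03 (limma adjusted p = 0.737) for ENSRNOG00000014871. Over all alternatives run, the adjusted p by limma ranged from 7.24e-07 to 0.77 for ENSRNOG00000014644 and from 1.71e-05 to 0.77 for ENSRNOG00000014871, and the difference stayed above 0 in each. Knockout libraries 29-4, 29-5 and 30-1 were all above the other 7 day 8 libraries in 5 members, and in 2.7% of tested rows. These high libraries raise the day 8 mean, which the rule uses: the difference from day 8 to 14 was -0.30 in wild-type against -1.52 in knockout libraries for ENSRNOG00000014644, and -0.38 against -1.41 for ENSRNOG00000014871. For such members a genotype difference at day 8 is not free of the rule.

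**Figure D5:**
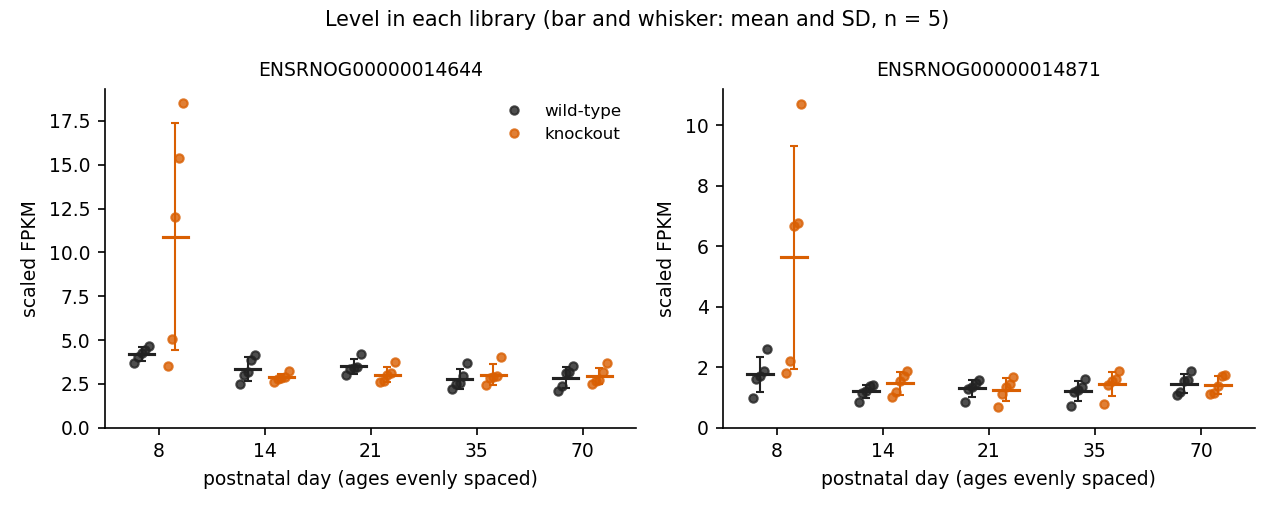
Scaled FPKM (vertical axis, from 0) of the 2 members higher in knockout libraries at day 8, 1 point per library, by age and genotype, with mean and SD of 5 libraries. In each, 3 knockout libraries of day 8 stand above all others and the remaining 2 lie at 5.04 FPKM or lower.

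The opposite case did not pass the test. The long member ranked 17, picked out after its values were seen, was at 30.5, 33.4, 7.29, 19.7 and 46.7 FPKM in wild-type libraries of day 8 and at 32.1, 6.36, 7.04, 3.00 and 0.542 in knockout ones. At day 14 it was at 7.60, 2.92, 3.49, 4.28 and 0.728 FPKM in wild-type and at 12.1, 4.49, 9.86, 2.73 and 7.36 in knockout libraries. In wild-type libraries only the lowest of day 8 was within the range of day 14, and in knockout libraries the ages overlapped. Its genotype difference at day 8 was -2.06 ± 0.649 log2 units (SE; limma adjusted p = 0.238).

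At later ages no member was called by limma: 0 at days 14, 21, 35 and 70, where the share of tested rows called was 0% in either direction save 0.00677% lower at day 14. Unadjusted p-values under 0.05 were found for 2, 4, 4 and 3 members at those ages in turn. These are 1.92%, 3.85%, 3.85% and 2.88% of members, near the 2.38%, 2.95%, 2.55% and 2.4% of tested rows. On the average over ages 0 members were called, against 0.00677% of rows higher and 0.0271% lower, and 3 (2.88%) had an unadjusted p under 0.05, below the 5.87% of rows. A genotype difference that depended on age was called in 0 members by limma, against 0.00677% of rows, with 13 members (12.5%) and 3.18% of rows at an unadjusted p under 0.05. The difference between genotypes in the change from day 8 to 14 was called in 0 members and 0% of rows. Here 14 members (13.5%) and 6.25% of rows had an unadjusted p under 0.05. At day 8 itself 17 members (16.3%) and 9.32% of rows did. The rule averaged wild-type and knockout libraries, so it also admits rows whose fall comes mainly from a single genotype. Of the members, 60 reached the required fall in each genotype, 27 only in wild-type and 17 only in knockout libraries. The shares for dependence on age, the day 8 to 14 change and day 8 are therefore not free of the rule. Its part in their excess over all rows was not tested, so the excess is no result about genotype.

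By their medians the genotypes lay close. The median difference over the 104 members, knockout minus wild-type, was 0.03 log2 units on day 8 and 0.08 on day 14. On days 21, 35 and 70 it was 0.01, 0.02 and -0.08. In long members it ran between -0.07 and 0.07 over the 5 ages, and in short members between -0.35 and 0.22. For unresolved members it ran between -0.01 and 0.14, highest on day 8, where all unresolved tested rows were at 0.006. A missed threshold with 5 libraries a group does not show that the genotypes were alike, above all for short members.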

How the data were processed

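The authors deposited FPKM in a table of 25 wild-type and a table of 25 knockout libraries. Per the labels' protocols, 50 bp single-end reads were aligned to rn4 with gsnap. The submitters' processing notes name BWA 0.6.1, bedtools and Cufflinks, and which aligner made the tables was not settled. No strand protocol is stated, so overlapping genes may share reads.

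Libraries were divided by their median ratio to row geometric means (factors 0.829 to 1.21). Tests were made with limma 3.58.1 in R 4.3.3 on log2(FPKM + 0.5), which understates changes of low rows. They used 14779 rows with a mean of at least 0.5 FPKM, 10 groups, 40 residual degrees of freedom, and trended and robust variance. The method was checked on simulated data with normal noise drawn independently for each row and library. That noise lacks the shared variation seen in the short rows. No pair of libraries held identical values (0 pairs). Relative depth came from 4202 rows. A row's reads were recovered where a share of at least 0.95 of its values lay within 0.02 of a whole multiple, up to 400, which was so for 8989 rows. Tables were made with pandas 2.3.3 and numpy 2.4.6, and plots with matplotlib 3.10.9, in Python 3.11.15.

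The members and lists were chosen with earlier results of these data known. The identifiers could not be matched to symbols, so the intended gene lists, markers, motifs and sequences were not used. Without symbols the rule was to name at most 2 members with the largest fall and at most 2 per direction of a genotype comparison. Alternatives were another scaling, pseudocount, filter, variance model, grouping by the first number of the titles, and leaving out each library.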

Additional observations from a re-analysis of the deposited data

Results flagged for a closer look

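In 70 groups of 5 libraries, 7 held a library far from the other 4 (a gap over 0.710 of the group's range). Chance flags about 1 in 20 groups where values are normal and groups independent. The measures here share libraries and members, and some hold many values of 0, so that rate is only a guide. The 70 are 10 groups for each of 7 measures: the library medians of short, long and all members and the levels of the 4 members named by identifier. For short members wild-type library 20-2 of day 14 was at -2.138 log2 units relative to day 8, below -0.729 to -0.188 in the other 4. For long members wild-type library 26-1 of day 8 was at -0.214, below -0.022 to 0.039, and knockout library 17-1 of day 21 at -1.144, above -1.173 to -1.168. ENSRNOG00000040911 stood at 131 FPKM in knockout library 17-1 of day 21, above 9.27 to 41.9, and at 131 FPKM in wild-type library 25-3 of day 8, above 23.3 to 51.8. ENSRNOG00000034718 stood at 1.09 FPKM in knockout library 18-1 of day 21, a single read where the others were listed at 0, and at 4.43 FPKM in knockout library 7-2 of day 35, above 0 to 1.13.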

How the results depend on the processing

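The number of members was 183 with a fall of at least 0.7, 64 with 0.9 and 69 with windows of 0.3, and 85 to 120 with each library left out. At day 8 the members called as differing between genotypes numbered 0 on values as deposited, 0 with libraries averaged by the first title number, 0 with only the 2 groups fitted and 4 with array weights, and 0 to 5 with a library left out. Array weights gave 2 members for the dependence on age and 2 for the day 8 to 14 change, and leaving out a library 0 to 1 for each. At day 35 the 7 members became 4 without a filter on low values, 14 with array weights, and 4 to 8 with a library left out, the 4 without wild-type library 10-4. The counts of rows that fell in the genotype that had not chosen them ran from 57 to 85 in knockout and from 64 to 104 in wild-type libraries. The genotype and day 35 counts under the alternatives were taken without regard to direction. Low read numbers limit the 16 members with a median under 10 reads. No paired analysis was possible because no replicate number is shared between groups.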
